A study of Mus musculus with 50 samples.

Results

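Histones are the proteins around which DNA is wound in chromatin, and the 69 histone genes described here are all rows of the count matrix whose symbol begins with Hist1h, Hist2h, Hist3h, Hist4h, H2af or H3f3, out of 19224 genes. Of these, 60 are replication-dependent genes (the Hist symbols) and 9 are variant genes (H2afb3, H2afj, H2afv, H2afx, H2afy, H2afy2, H2afz, H3f3a and H3f3b). The choice of members used gene names only. All 69 had at least 1 count in the cells kept.

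The study transplanted single haematopoietic stem cells (HSCs) and sequenced single blood-forming cells of the recipients. The donors, of the strain B6-Ly5.2, carried a β-actin-GFP transgene, so GFP marks the progeny of 1 transplanted cell, and every recipient, a B6-Ly5.2 mouse, was lethally irradiated and also received whole marrow competitor cells without the transgene. The labels list 50 samples, of which 10 were taken 1 month, 26 were taken 4 months and 14 were taken 12 months after transplantation, from bone marrow or from bone marrow and spleen. All groups below share that history, and all cells passed a c-Kit enrichment and a single-cell sort on surface markers or GFP. Cells are named by library and cell number alone, so no cell could be assigned to a month, a tissue, an animal or a sort gate, and the matrix was treated as 1 pooled sample.

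The classes differ in how their messages are made. Replication-dependent genes supply most histone during DNA replication, lie in clusters, usually have no intron, and end their messages in a stem-loop that is bound by SLBP in place of a poly(A) tail. Variant genes such as those for H2A.Z and H3.3 are transcribed through the whole cell cycle from spliced, polyadenylated messages. The molecule is labelled polyA RNA and the library chemistry, a variant of Smart-seq2 and STRT-seq, favours the 3′ ends of transcripts; how messages without a poly(A) tail enter such libraries was not tested.

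Cells were grouped by cell-cycle and lineage genes, none of them a histone gene. A gene counted as on in a cell at 20 counts per 1000000 counts of the cell (CPM) or more, and 20 S-phase genes (such as Mcm5, Pcna and Rrm2) and 20 G2/M genes (such as Mki67, Top2a and Ccnb1) were used. Cycling cells (554) had at least 12 S genes or at least 8 G2/M genes on. They include 213 S-gene cells (at least 12 S and at most 4 G2/M genes), 176 S and G2/M-gene cells (at least 12 and at least 8) and 67 G2/M-gene cells (at least 8 G2/M and at most 8 S genes). Lineage-marker cells (457) passed any of the marker lists of blood lineages, such as the neutrophil and erythroid lists, and had Procr below 20 CPM. How mature these cells were was not tested. The reference was 1994 Procr+ non-cycling cells, with at most 7 S and at most 3 G2/M genes on, no lineage list passed and Procr (the surface receptor CD201 of HSCs) at 20 CPM or more. All 12 HSC markers checked were detected in the Procr+ non-cycling cells, with a summed level of 2543 CPM. All 12 were also detected in cycling and in lineage-marker cells, so detection does not set the groups apart. The same markers summed to 1320 CPM in cycling cells and 1570 CPM in lineage-marker cells, but to 2345 CPM in the non-cycling ones among the latter. Procr is among the 12 markers and was used to gate Procr+ non-cycling and lineage-marker cells (365 against 1.85 CPM). Part of the difference between these 2 groups was thus set by the gates. Other lists in the Procr+ non-cycling cells summed to 2054 CPM (erythroid), 878 CPM (primary granule) and 207 CPM (neutrophil), so the cells are called here by their gates and not by a cell type.

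The matrix used held 624386060 counts in 4271 cells of 67 libraries, of which 4185 cells were kept. Library totals were between 1665151 and 26184494 counts. The median depth per cell was 185991 counts in cycling cells, 75370 in lineage-marker cells and 126517 in Procr+ non-cycling cells. Of 95 different cell numbers, 93 occur in more than 1 library, but 0 full cell names were repeated. With 1 pooled sample there is no test: ratios are of summed counts, their intervals are exact and cover counting error only, and direction is counted over libraries that hold 5 or more cells of each group, which are not replicates of a condition. Ratios per gene are log2 of CPM with 1 CPM added, and a gene was called at a 2-fold difference with at least 5 CPM in either group.

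The gene structures separate the classes. All 69 genes were found in the GENCODE M21 annotation of the mouse build GRCm38. Of the 60 replication-dependent genes, 52 are the Hist1 genes of chromosome 13, and 55 have a single exon in every transcript, against 2 of the 9 variant genes. The histone stem-loop has a pyrimidine-rich first arm starting in GG and a purine-rich second arm ending in CC. It was searched in the transcripts and found in 42 replication-dependent genes and in 1 variant gene, H2afx. Some annotated transcripts without a match are short, such as those of Hist1h4k (312 bases) and Hist1h2ai (393 bases). They may end before a stem-loop, so a missing match does not show that a gene lacks one. The 7 sequences below are shown because their genes mark the extremes of the results, with the stem-loop in capitals and up to 5 bases on each side, on the transcript strand:
Hist1h2ao: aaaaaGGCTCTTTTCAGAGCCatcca
Hist1h2ap: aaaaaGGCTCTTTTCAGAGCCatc
Hist1h2ae: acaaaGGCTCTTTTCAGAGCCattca
Hist1h4i: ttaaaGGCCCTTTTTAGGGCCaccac
Hist1h1c: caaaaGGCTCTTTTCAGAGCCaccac
Hist3h2a: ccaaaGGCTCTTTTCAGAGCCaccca
H2afx: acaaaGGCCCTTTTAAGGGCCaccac
The annotated transcripts go on past the stem-loop by 31 bases in Hist1h2ao and 3 in Hist1h2ap, but by 840 bases in Hist1h1c, 1643 in Hist3h2a and 822 in H2afx. Hist1h2bc, an H2B gene, has 2 exons and no match. An annotated end past the stem-loop is that of a recorded transcript and was not measured here.

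Promoters of the classes were alike in CCAAT and differed most in TATAAA, with only 8 variant promoters to compare. RefSeq (GRCm38.p6) gave 300 bases, from 250 before to 50 after the start, for 62 of the 69 genes. The CCAAT motif, on either strand, was in 83.3% of the 54 replication-dependent promoters, against 37.9% of all 27025 promoters in the table. It was in every H1, H2A, H2B and H3 promoter but in only 3 of 12 H4 promoters. Some H2A and H2B promoters overlap on opposite strands, such as those of Hist1h2ao and Hist1h2bq, so the same bases can count for both. TATAAA was in 51.9% of them, against 8.88% of all promoters. The octamer ATTTGCAT, a motif of Oct1, was in 22.2%, against 1.75% of all promoters, and was found in 6 of 14 H2A and 6 of 15 H2B promoters and in none of the H1, H3 or H4 promoters. The variant promoters had CCAAT in 7 of 8, and TATAAA and ATTTGCAT in 1 of 8 each, both in H3f3b. The motifs are in capitals in 4 promoters, those of Hist1h2ao and Hist1h1b, which had the 2 highest ratios in cycling cells, of Hist1h1c, which was not higher there, and of H3f3b, the variant gene with the highest level per kb of exon in Procr+ non-cycling cells:
Hist1h2ao at chr13:21810117-21810416, plus strand: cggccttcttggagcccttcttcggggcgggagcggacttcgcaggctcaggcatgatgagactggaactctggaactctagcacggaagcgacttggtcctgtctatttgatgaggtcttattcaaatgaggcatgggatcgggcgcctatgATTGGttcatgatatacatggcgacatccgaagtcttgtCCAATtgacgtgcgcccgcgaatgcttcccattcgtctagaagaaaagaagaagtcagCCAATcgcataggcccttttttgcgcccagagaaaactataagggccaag
Hist1h1b at chr13:21780576-21780875, minus strand: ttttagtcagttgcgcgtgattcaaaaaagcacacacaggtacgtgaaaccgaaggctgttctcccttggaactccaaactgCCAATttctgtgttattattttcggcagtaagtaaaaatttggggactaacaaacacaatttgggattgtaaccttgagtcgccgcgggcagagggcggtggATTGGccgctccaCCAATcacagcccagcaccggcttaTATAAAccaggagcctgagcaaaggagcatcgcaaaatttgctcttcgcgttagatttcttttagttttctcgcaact
Hist1h1c at chr13:23738557-23738856, plus strand: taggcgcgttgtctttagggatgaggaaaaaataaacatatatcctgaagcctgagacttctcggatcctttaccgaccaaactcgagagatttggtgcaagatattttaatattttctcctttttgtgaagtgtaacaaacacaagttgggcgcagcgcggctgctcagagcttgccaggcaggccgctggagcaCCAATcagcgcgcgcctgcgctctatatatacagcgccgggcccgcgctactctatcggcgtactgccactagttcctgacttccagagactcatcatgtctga
H3f3b at chr11:116024455-116024754, minus strand: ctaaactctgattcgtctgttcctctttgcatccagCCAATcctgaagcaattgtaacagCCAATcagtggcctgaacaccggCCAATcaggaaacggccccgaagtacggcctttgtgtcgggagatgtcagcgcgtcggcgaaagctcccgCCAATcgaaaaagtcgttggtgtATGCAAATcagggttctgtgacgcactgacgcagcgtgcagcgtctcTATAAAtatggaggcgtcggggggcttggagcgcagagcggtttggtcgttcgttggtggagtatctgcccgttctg
Hist1h2ao has 3 CCAAT matches, Hist1h1b has 3 and a TATAAA, Hist1h1c has 1 CCAAT, and H3f3b has 4 CCAAT, 1 TATAAA and 1 octamer. CCAAT was thus present both in promoters of genes that differed between cells and in those that did not.

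Summed replication-dependent histone transcripts were about 5 times as abundant in cycling cells as in Procr+ non-cycling cells, while summed variant transcripts differed by much less. The 60 replication-dependent genes together held 2980 CPM (95% counting interval 2970 to 2990) in cycling cells, against 591 CPM (589 to 594) in Procr+ non-cycling cells, a ratio of 5.04 (log2 2.33, or 1.15 without the genes that share at least 50% of their sequence windows with another member). Over libraries, the cycling cells of a library held a lowest value of 172, a median of 2431 and a highest value of 8493 CPM, against 327, 618 and 2089 CPM in the Procr+ non-cycling cells. Cycling cells were the higher in 44 of 48 libraries, where the log2 ratio ran between -2.17 and 3.59 around a median of 1.83. The values overlap between groups, and cells within a group were spread widely: the median cell held 721 CPM among cycling cells and 399 CPM among Procr+ non-cycling cells. The 9 variant genes held 5455 CPM in cycling cells, against 4005 CPM in Procr+ non-cycling cells (log2 0.45, higher in 43 of 48 libraries). This sum mixes genes that differed in opposite directions. H3f3b, which was lower in cycling cells, held 2772 CPM of it in Procr+ non-cycling cells, while the H2A variants together were higher in cycling cells. The replication-dependent ratio was also smaller without the H2A pair described below. Replication-dependent transcripts made up 35.3% of all histone counts in cycling cells and 12.9% in Procr+ non-cycling cells.

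**Figure D1:**
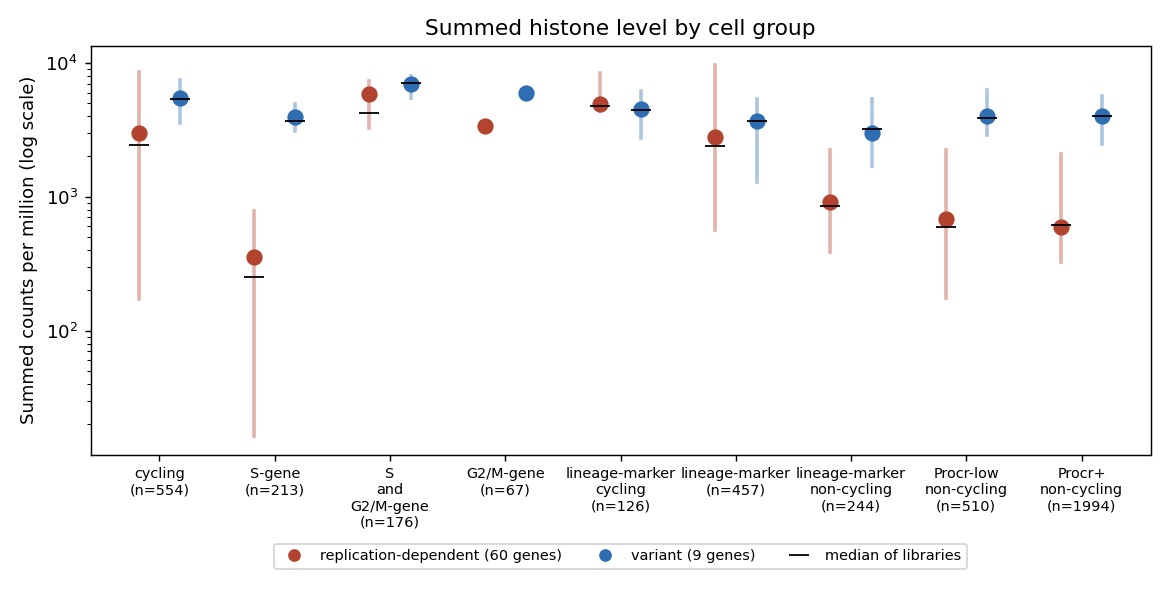
Summed histone level in CPM (log scale) by cell group, with the number of cells under each name. Dots are pooled levels, bars span the lowest to highest library with at least 5 cells of the group and dashes are their medians; S-gene cells (357 CPM) have the lowest replication-dependent level and S and G2/M-gene cells (5867 CPM) the highest, while variant levels stay between 2974 and 6974 CPM.

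**Figure D2:**
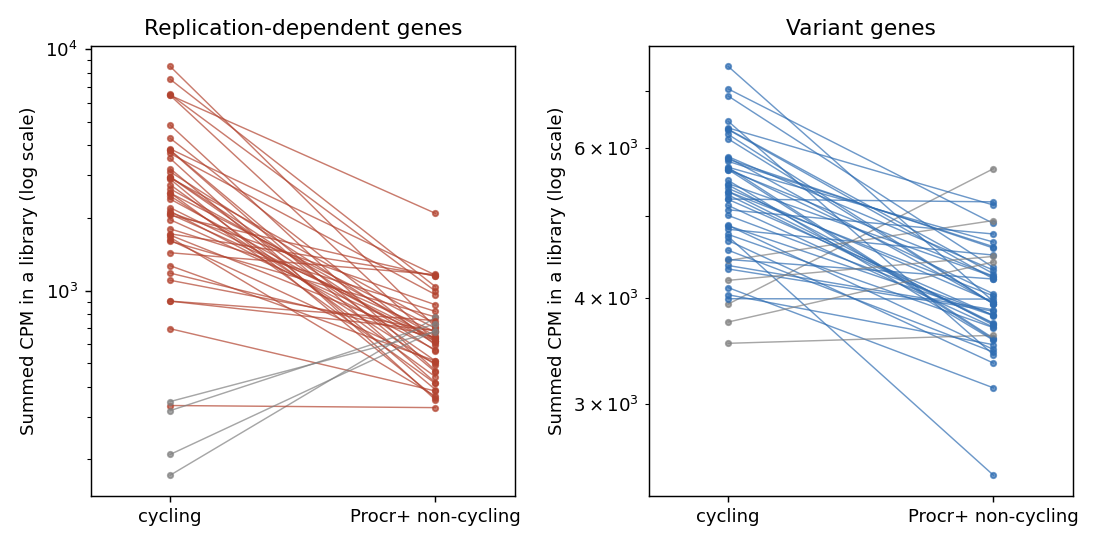
Summed CPM (log scale) in cycling and Procr+ non-cycling cells of the same library, 1 line for each of the 48 libraries compared; grey lines are libraries in which cycling cells were not higher. Replication-dependent genes were higher in cycling cells in 44 libraries and variant genes in 43, over a much smaller span.

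Of the 60 replication-dependent genes, 47 reached 5 CPM in cycling or Procr+ non-cycling cells, and 40 of them were called higher in cycling cells and 0 lower. Within single libraries, which hold few cells of a group, the median count called higher was 17.5. The share of all genes called within single libraries was not computed, so this count has no background beside it. In the pooled cells, over all 10021 genes at 5 CPM or more, 6.2% were called higher and 4.25% lower. Of the 8 variant genes at that level, 4 were called higher. The median log2 ratio was 2.42 for the 47 replication-dependent genes and 0.97 for the 8 variant genes, against -0.09 for all genes. The other 13 replication-dependent genes stayed under 5 CPM in both groups, so the counts do not cover them.

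**Figure D3:**
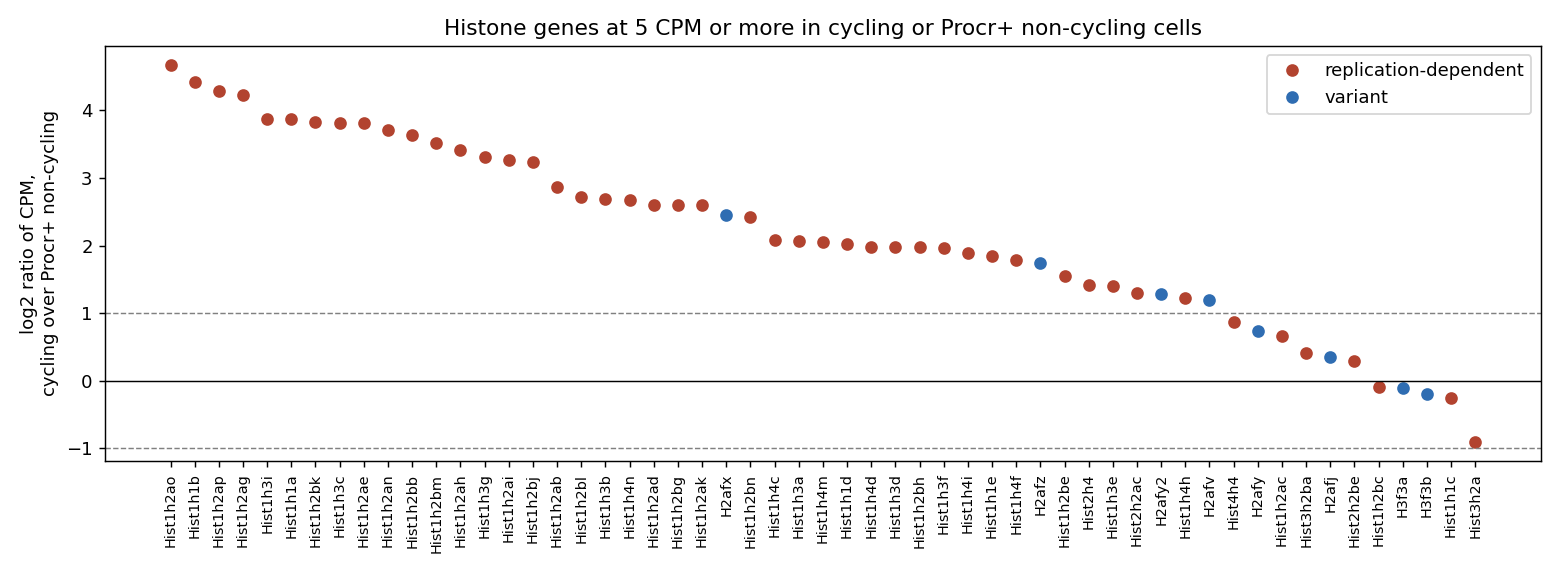
Log2 ratio of CPM, cycling over Procr+ non-cycling cells, for the 55 histone genes at 5 CPM or more in either group, in order; dashed lines mark a 2-fold difference. Hist1h2ao (4.67) is at the top, 40 of 47 replication-dependent genes lie above the upper line, and Hist3h2a (-0.90) is lowest.

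Among H2A genes, which encode a core nucleosome subunit, a pair of near-identical genes dominated. Hist1h2ao had 847 CPM in cycling cells (0, 640 and 3569 CPM as the lowest, median and highest library), against 32.3 CPM in Procr+ non-cycling cells (0, 31.5 and 561 CPM), a log2 ratio of 4.67, and was higher in 43 of 48 libraries. Hist1h2ap had 765 CPM, against 38.2 CPM (log2 4.29, higher in 45 of 48). These 2 genes share 93.5% and 93.1% of their 50-base transcript windows with another histone gene, mostly each other, so how their counts divide is uncertain, and they are best read as a pair. Together they made up 54.1% of all replication-dependent counts in cycling cells, against 11.9% in Procr+ non-cycling cells. Without both, the replication-dependent sum was 1368 CPM in cycling cells, against 521 CPM in Procr+ non-cycling cells (log2 1.39, higher in 38 of 48 libraries). Hist1h2ae, another H2A gene, had 204 CPM, against 13.6 CPM (log2 3.81, higher in 41 of 48), and Hist1h2ag (18.4 against 0.04 CPM) and Hist1h2an (20.5 against 0.65 CPM) were among the 10 highest ratios. The exception was Hist3h2a, on chromosome 11, with 33.4 CPM in cycling cells, against 63.4 CPM in Procr+ non-cycling cells (log2 -0.90), lower in most libraries and higher in 7 of 48. Summed, the H2A genes held 1968 CPM, against 169 CPM, a ratio of 11.6.

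Per kilobase of exon, the H2A pair was highest of all histone genes in cycling cells, with 1765 (Hist1h2ao) and 1586 (Hist1h2ap) CPM per kb, against 811 for H3f3b and 610 for H2afv. By CPM without this division, H3f3b was the highest. In Procr+ non-cycling cells the first 3 were variant genes, H3f3b (931 CPM per kb), H2afv (266) and H2afz (172), followed by Hist1h2bc (137), while Hist1h2ap (79.3) and Hist1h2ao (67.3) came 6th and 8th. Because the libraries enrich 3′ ends, division by exon length can understate long genes, so the order of genes depends on the scale used.

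The linker histones of the H1 family, which bind DNA between nucleosomes, were split. Hist1h1b (encoding H1.5) had 42.6 CPM in cycling cells, with a library range of 0 to 128 and a median of 15.3, against 1.03 CPM in Procr+ non-cycling cells, where the median library was at 0 (log2 4.42, higher in 38 of 48). Hist1h1a (H1.1; 26.9 against 0.91 CPM, log2 3.87), Hist1h1d (H1.3; 30.8 against 6.86 CPM, log2 2.02) and Hist1h1e (H1.4; 116 against 31.5 CPM, log2 1.85, higher in 43 of 48) were also called higher. Hist1h1c (H1.2) was not: it had 94.6 CPM in cycling cells, against 113 CPM in Procr+ non-cycling cells (log2 -0.25, higher in 14 of 48 libraries). The H1 sum was 311 CPM in cycling cells, against 153 CPM in Procr+ non-cycling cells, and 31 of 48 libraries had the higher value in cycling cells.

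The H2B genes showed the same split more strongly. Of the 12 tested, 9 were called higher, among them Hist1h2bk (14.2 against 0.07 CPM, log2 3.83), Hist1h2bb (15.0 against 0.29 CPM), Hist1h2bm (12.0 against 0.14 CPM) and Hist1h2bj (19.6 against 1.19 CPM). Hist1h2bc alone outweighed them in Procr+ non-cycling cells: it had 150 CPM in cycling cells (0.95, 75.9 and 982 CPM over libraries), against 159 CPM in Procr+ non-cycling cells (0, 136 and 561 CPM), and was higher in 15 of 48 libraries. Hist3h2ba (log2 0.41) and Hist2h2be (log2 0.29) were not called either. The H2B sum, 329 CPM in cycling cells against 195 CPM in Procr+ non-cycling cells, was higher in 23 of 48 libraries, and its median log2 ratio over libraries was -0.15.

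All 8 H3 genes tested were called higher, though at low levels and with unequal spread over libraries. Hist1h3i had 17.8 CPM in cycling cells, against 0.28 CPM in Procr+ non-cycling cells (log2 3.88), and was higher in 28 of 48 libraries. Hist1h3c had 17.2 CPM, against 0.29 CPM (log2 3.82, higher in 33 of 48). The H3 sum was 108 CPM, against 12.5 CPM (higher in 41 of 48 libraries). Of 9 H4 genes tested, 8 were called higher. Hist1h4i, the H4 gene with the most counts, had 114 CPM (a library range of 1.24 to 370), against 30.0 CPM (1.38 to 118; log2 1.90, higher in 38 of 48). The one H4 gene not called was Hist4h4 (5.06 against 2.32 CPM, log2 0.87), and the H4 sum was 264 CPM, against 62.3 CPM.

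Variant genes divided between H2A and H3. H2afx, whose product is phosphorylated at DNA breaks, had 467 CPM in cycling cells (47.2, 453 and 1030 CPM over libraries), against 84.8 CPM in Procr+ non-cycling cells (25.4, 87.0 and 150 CPM), a log2 ratio of 2.45, and was higher in 46 of 48 libraries. H2afz and H2afv, the genes of the H2A.Z proteins, were higher in 48 of 48 libraries: H2afz had 1023 CPM, against 306 CPM (log2 1.74), and in no library did its cycling level (554 to 1623 CPM) fall below the highest Procr+ non-cycling level (447 CPM). H2afv had 997 CPM, against 434 CPM (log2 1.20). H2afy2, a macroH2A gene, was called at a low level (9.86 against 3.45 CPM, log2 1.29). The other macroH2A gene, H2afy (240 against 144 CPM, log2 0.73), and H2afj (232 against 182 CPM, log2 0.35) were under 2-fold. H3f3b and H3f3a encode the same H3.3 protein. H3f3b was the most abundant histone gene by counts and had 2413 CPM in cycling cells (1501, 2273 and 3999 CPM), against 2772 CPM in Procr+ non-cycling cells (1476, 2759 and 4590 CPM), and was higher in 8 of 48 libraries. H3f3a had 74.0 CPM, against 79.6 CPM. H2afb3, known from mouse testis, had 18 counts in cycling cells and 0 in Procr+ non-cycling cells, and was above 0 in cycling cells of 1 of the 48 libraries compared. The 7 H2A variants together held 2968 CPM, against 1154 CPM (higher in 48 of 48 libraries), and the 2 H3 variants 2487 CPM, against 2851 CPM (higher in 9 of 48).

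Genes were also divided by their annotated ends. Of 15 tested genes whose transcript goes on more than 300 bases past the stem-loop, 11 were called higher, with a median log2 ratio of 1.85 and Hist1h1c, Hist1h2ac, Hist3h2a and Hist4h4 under 2-fold. Of 21 genes ending within 300 bases of it, 20 were called (median 2.87), the exception being Hist3h2ba. Of 11 genes without a match, 9 were called (median 3.27), and Hist1h2bc and Hist2h2be were not. This set mixes short annotated transcripts, such as those of Hist1h2an (393 bases) and Hist1h3i (411 bases), with longer ones, such as that of Hist2h2be (2620 bases). Over all genes in this comparison, 6.2% were called higher. By shared sequence, all 19 genes that share at least 50% of their windows with another member were called (median 3.23), against 21 of 28 of the others (median 1.93). The sum over genes below that sharing limit gave a log2 ratio of 1.15 in place of 2.33, with the H2A pair among the genes left out. These splits describe the annotation, overlap each other and were not tested.

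Replication-dependent transcripts were at 357 CPM in S-gene cells, 5867 CPM in S and G2/M-gene cells and 3388 CPM in G2/M-gene cells, against 591 CPM in Procr+ non-cycling cells. S-gene cells were thus below Procr+ non-cycling cells in the sum (log2 -0.73), and higher in 0 of 15 libraries. Most of that pooled difference lay in Hist1h2bc and Hist1h1c, which made up 14.1% of the sum in S-gene cells and 45.9% in Procr+ non-cycling cells. Without both, the sums were 307 CPM in S-gene cells, against 320 CPM in Procr+ non-cycling cells (log2 -0.060), though S-gene cells were higher in only 2 of 15 libraries and the median log2 ratio over libraries was -0.99. The H2A pair went the other way in the pooled cells, with Hist1h2ao at 50.9 against 32.3 CPM and Hist1h2ap at 47.2 against 38.2 CPM. Of 20 replication-dependent genes at 5 CPM in this comparison, 2 were called higher and 6 lower, where 4.32% and 4.78% of all genes were. S and G2/M-gene cells held 16.4 times the level of S-gene cells (log2 4.03, higher in 6 of 6 libraries, with log2 ratios per library of 3.04 and above), and 50 of 52 genes were called higher, against 4.51% of all genes (3.36% were called lower, and none of these members). Against Procr+ non-cycling cells, 49 of 52 genes were called higher in S and G2/M-gene cells and 0 lower (7.72% and 9.62% of all genes). G2/M-gene cells held 9.49 times the level of S-gene cells (log2 3.24), with 40 of 46 genes called higher and 0 lower, against 11.5% of all genes called higher and 8.43% lower. Only library Lib23 had at least 5 G2/M-gene and 5 S-gene cells, with a log2 ratio of 1.71, and it holds 19 of the 67 G2/M-gene cells. Without it G2/M-gene cells were at 3598 CPM. Variant genes were at 5972 CPM in G2/M-gene cells, against 3918 CPM in S-gene cells (log2 0.61). Median depth was 100729 counts in G2/M-gene cells and 208844 in S-gene cells. With cells thinned to 20000 counts the log2 ratio was 3.03, and 5 G2/M-gene and 4 S-gene cells were left out. The groups were set before thinning, so the part of depth in which cells enter them was not tested.

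The H2A pair was most abundant in cells with many S and many G2/M genes on. The pooled H2afx level was high with many G2/M genes on, whatever the number of S genes. Hist1h2ao had 1837 CPM in S and G2/M-gene cells (850, 1182 and 2443 CPM over 6 libraries), against 50.9 CPM in S-gene cells (4.37, 20.5 and 192 CPM), and the libraries did not overlap. H2afx had 797 CPM (415, 784 and 1091 CPM), against 116 CPM (71.0, 119 and 168 CPM), again with no overlap, and it was at 581 CPM in G2/M-gene cells. With 12 to 20 G2/M genes on, H2afx was between 514 and 1187 CPM at every number of S genes, against 353 CPM in cells with 16 to 20 S genes but 8 to 11 G2/M genes. At few S genes this rests on few cells: 3 cells with 0 to 3 S genes (514 CPM) and 20 cells with 4 to 7 (741 CPM). H2afz was already at 652 CPM in S-gene cells, above the 306 CPM of Procr+ non-cycling cells, and at 1391 CPM in S and G2/M-gene cells. Set against G2/M-gene cells, S and G2/M-gene cells had 26 of 54 genes called higher and 2 lower, where 8.34% and 11.2% of all genes were. Hist1h2ao was at 1837 CPM in S and G2/M-gene cells, against 538 CPM in G2/M-gene cells, and Hist1h1b at 82.5 against 26.3 CPM; the 2 called lower were Hist1h2bc and Hist1h1c.

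**Figure D4:**
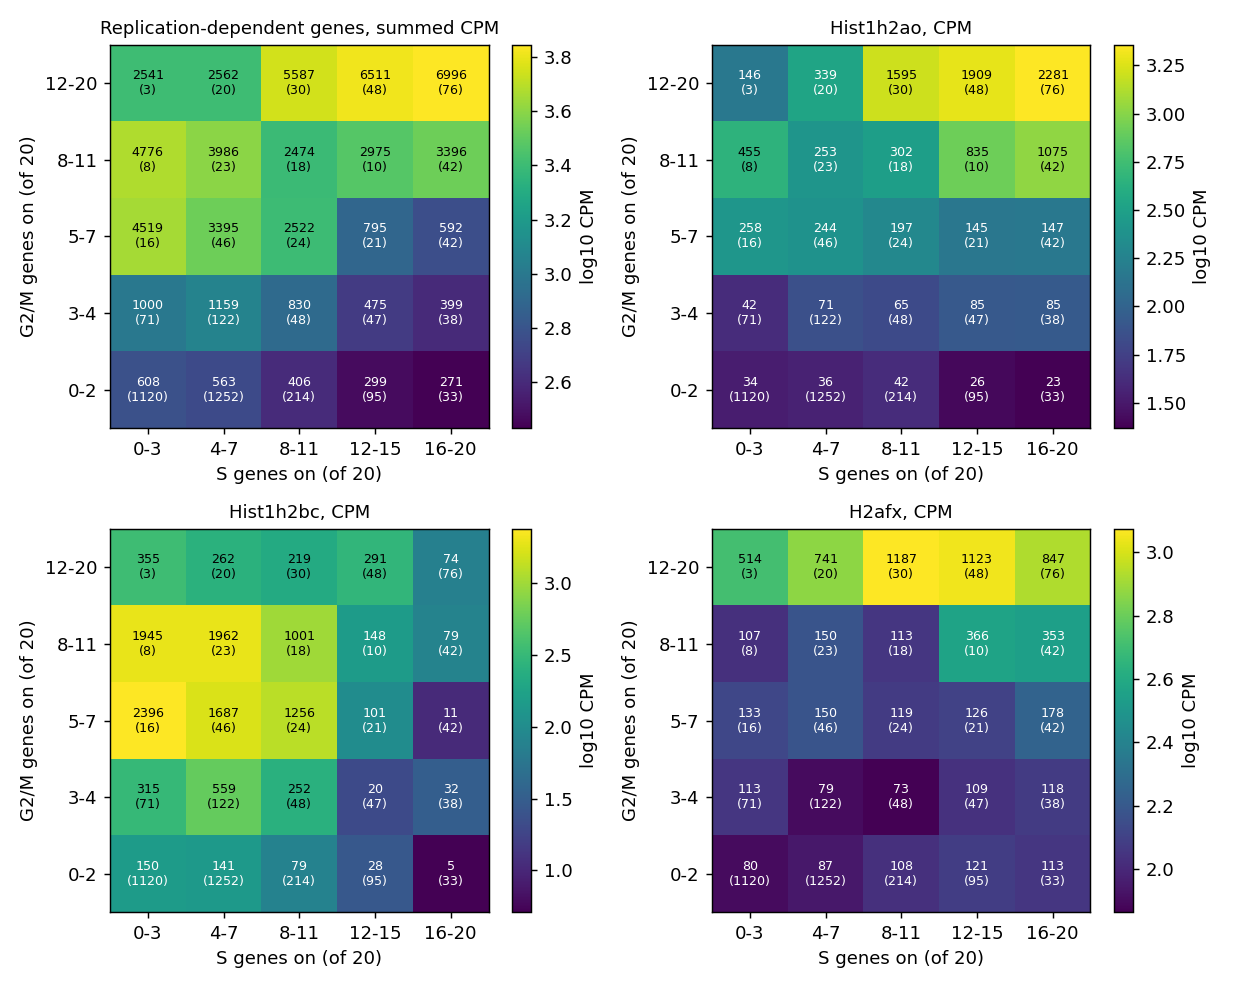
Pooled CPM (colour on a log10 scale, value in each square, number of cells in brackets) by how many of 20 S genes (x axis) and 20 G2/M genes (y axis) were on, in cells that passed no lineage list. Hist1h2ao is highest with 8 or more S genes and 12 to 20 G2/M genes on (1595 to 2281 CPM) and H2afx along the whole top row of 12 to 20 G2/M genes (514 to 1187 CPM), whereas Hist1h2bc is highest at upper left, with few S genes and 5 to 11 G2/M genes on.

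Hist1h2bc and Hist1h1c had a different pattern. Hist1h2bc was at 754 CPM in G2/M-gene cells, 142 CPM in S and G2/M-gene cells and 22.8 CPM in S-gene cells, and Hist1h1c was at 339, 107 and 27.5 CPM in the same 3 groups. On the grid of S and G2/M genes, Hist1h2bc peaked in cells with at most 7 S genes and 5 to 11 G2/M genes on, a range read from the grid after its values were seen, so what follows is a description. Of those 93 cells, 62 lie between the non-cycling and the cycling limits. In the 93 cells, from 36 libraries, it held 1935 CPM, against 183 CPM in the 177 cells with 12 or more G2/M genes, 22.8 CPM in S-gene cells and 159 CPM in Procr+ non-cycling cells. Hist1h1c held 552 CPM, against 125, 27.5 and 113 CPM in the same cells. Together they made up 63.6% of the replication-dependent counts there, against 4.97% in cells with 12 or more G2/M genes. Hist3h2a (128 against 56.3 CPM), Hist1h2ac (97.2 against 44.3 CPM) and Hist1h3d (47.0 against 19.5 CPM) were likewise higher in the 93 cells than in those with 12 or more G2/M genes. Hist1h2ao (267 against 1868 CPM), Hist1h2ap (264 against 1773 CPM) and H2afx (143 against 978 CPM) were lower. Hist1h2bc, Hist1h1c, Hist3h2a and Hist1h2ac are 4 of the 7 genes not called between cycling and Procr+ non-cycling cells, while Hist1h3d was called. The other 3 did not share the pattern: Hist2h2be was at 1.67 against 24.9 CPM, Hist4h4 at 0.36 against 7.76 CPM and Hist3h2ba at 33.7 against 33.3 CPM.

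The spread behind these values was wide. Among the 93 cells the median cell had 207 CPM of Hist1h2bc, the upper quartile was at 1347 CPM and the highest had 7961 CPM. Without Lib23, which gave 20 of the 93 cells, the pooled level was 2046 CPM. Within the 3 libraries with at least 5 such cells, Hist1h2bc had 1317 CPM in Lib17 (against 190 CPM in its Procr+ non-cycling cells), 645 CPM in Lib23 (against 307 CPM) and 163 CPM in Lib18 (against 208 CPM), so Lib18 did not share the difference. The 93 cells had a median depth of 57534 counts, against 227921 in the cells with 12 or more G2/M genes, and the part of depth was not tested. Fewer cells with the transcript and less transcript per cell both enter a pooled level.

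**Figure D5:**
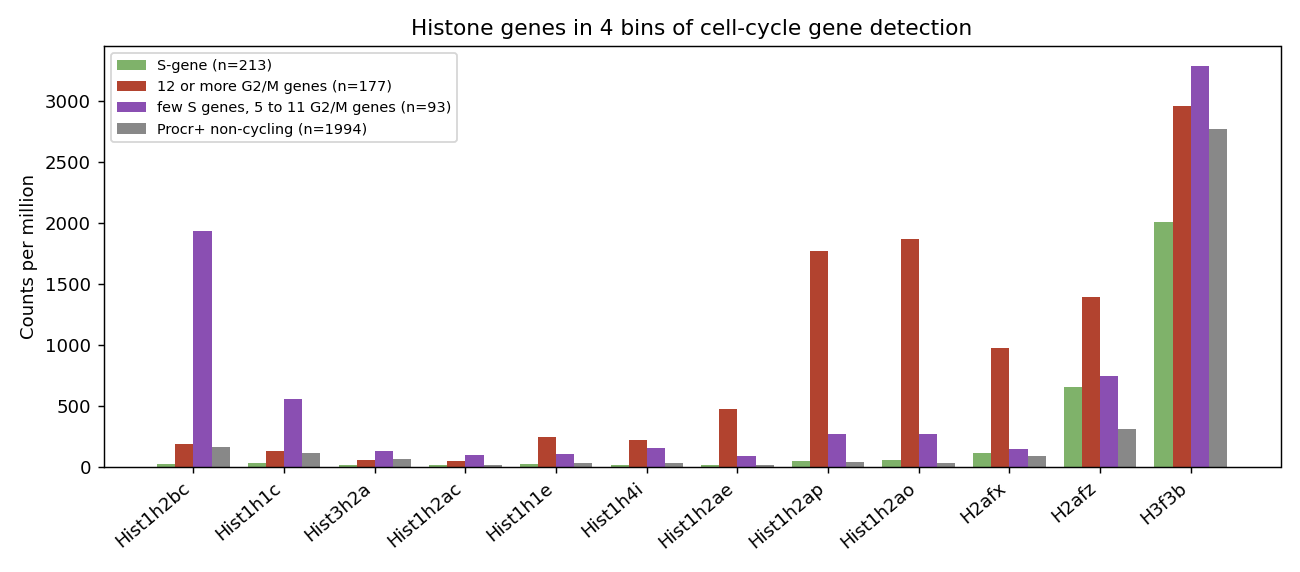
Pooled CPM of 12 histone genes in S-gene cells, cells with 12 or more G2/M genes on, cells with at most 7 S genes and 5 to 11 G2/M genes on, and Procr+ non-cycling cells. Hist1h2bc (1935 CPM) and Hist1h1c (552 CPM) are highest in the third bin, Hist1h2ao (1868 CPM), Hist1h2ap (1773 CPM) and H2afx (978 CPM) in the second, and H3f3b lies between 2010 and 3290 CPM in all 4.

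Lineage-marker cells also held more replication-dependent histone transcripts, with no difference of like size in variants. The replication-dependent sum was 2778 CPM in lineage-marker cells (562, 2380 and 9709 CPM over libraries), against 591 CPM in Procr+ non-cycling cells (log2 2.23, higher in 17 of 17 libraries, median log2 ratio 1.54). The log2 ratio was 1.55 with equal weight per cell, 1.64 with cells thinned to 20000 counts and 1.37 without the genes that share at least 50% of their windows. Of 52 genes tested 46 were called higher and 1, Hist3h2a (28.4 against 63.4 CPM), was called lower, where 18.2% of all genes were called higher and 12.7% lower. The variant sum was 3684 CPM, against 4005 CPM (log2 -0.12, higher in 7 of 17 libraries). Without the 8 libraries in which more than 50% of the cells passed a lineage list, the variant log2 ratio was 0.06, so its sign depends on those libraries. H3f3b was lower in lineage-marker cells (1936 against 2772 CPM, higher in 1 of 17 libraries), and H2afz was higher (591 against 306 CPM, higher in 15 of 17). The neutrophil markers summed to 21224 CPM in lineage-marker cells, against 207 CPM in Procr+ non-cycling cells. They are among the lists that gated both groups, so this difference describes the gates and is not a separate result.

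The lineage-marker cells were themselves a mixture of cycling (126) and non-cycling (244) cells, with the rest between the limits. Replication-dependent transcripts were at 4896 CPM in the cycling lineage-marker cells, against 907 CPM in the non-cycling ones (log2 2.43, higher in 7 of 7 libraries), where 47 of 54 genes were called higher, and 0 lower, against 13.2% and 18.7% of all genes. Non-cycling lineage-marker cells were closer to Procr+ non-cycling cells (907 against 591 CPM, log2 0.62, higher in 5 of 9 libraries), with 11 of 25 genes called higher and 2 lower, against 19.4% and 15.2% of all genes. Hist1h1c (240 against 113 CPM) was higher in non-cycling lineage-marker cells than in Procr+ non-cycling cells. Cycling lineage-marker cells held more than cycling cells without a lineage list (4896 against 2980 CPM, log2 0.72), but in 2 of 4 libraries only, with 28 of 54 genes called higher and 0 lower (11.8% and 10.1% of all genes). Non-cycling cells with Procr below 20 CPM and no lineage list (510) were near Procr+ non-cycling cells, at 677 against 591 CPM (log2 0.20, higher in 21 of 42 libraries), and 0 replication-dependent genes were called in either direction, against 1.07% and 0.627% of all genes.

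There were 6 marker classes with at least 20 cells, each passing 1 list only. Another 155 of the 457 lineage-marker cells (44 cycling) passed more than 1 list and are in no class. Their neutrophil, plasma-cell and erythroid lists summed to 23647, 10686 and 8364 CPM, so their identity is mixed. Replication-dependent genes made up 0.278% of their counts, as in all lineage-marker cells (0.278%). The replication-dependent sum was highest in cells with erythroid markers (4939 CPM, 28 cells, of which 21 were cycling) and T-cell markers (4459 CPM, 41 cells, 11 cycling), followed by neutrophil (2658 CPM, 88 cells, 24 cycling), B-cell (1248 CPM, 45 cells, 4 cycling), plasma-cell (1120 CPM, 30 cells, 2 cycling) and macrophage markers (614 CPM, 27 cells, 3 cycling), against 591 CPM in Procr+ non-cycling cells. The order follows pooled counts and not the typical cell: the median cell had 3115 CPM in the erythroid class, 670 in the T-cell class and 610 in the neutrophil class. In the T-cell class the 3 libraries with at least 5 such cells were at 405 to 1349 CPM, all under the pooled value. In the neutrophil class the sum was 2090 CPM without library TP57, and the 5 libraries with enough cells ranged from 414 to 4125 CPM. In the B-cell class the 3 libraries with at least 5 such cells were at 580, 653 and 4125 CPM, the last being Lib3, so the place of this class in the order depends on the library. The macrophage class had 2 such libraries (531 and 711 CPM), the erythroid class 1 (3618 CPM) and the plasma-cell class 0. The HSC markers summed to 5678 CPM in the plasma-cell class, above the 2543 CPM of Procr+ non-cycling cells. Ly6a alone gave 5282 CPM of this, against 862 CPM in Procr+ non-cycling cells. By contrast, Procr (2.04 against 365 CPM), Mecom (2.33 against 166 CPM) and Hlf (10.8 against 233 CPM) were lower in the plasma-cell class. The variant sums were between 3038 CPM (plasma-cell class) and 4688 CPM (T-cell class), so the classes differed less in variants than in replication-dependent genes.

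Genes that make, process and carry histones were also read from 2 lists. Of 15 tested genes for transcription and 3′ processing of replication-dependent messages, 3 were called higher in cycling cells and 0 lower, beside 6.2% and 4.25% of all genes. They were Slbp, the stem-loop binding protein (107 against 29.0 CPM, log2 1.85), Eri1, an exonuclease that acts on the stem-loop (83.3 against 32.1 CPM, log2 1.35), and Lsm11, a part of the U7 snRNP (13.2 against 5.72 CPM, log2 1.08). Npat, the co-activator of histone gene transcription, was at 21.0 against 16.8 CPM (log2 0.30), and the lowest ratios were those of Sympk (log2 -0.37), Pou2f1, which encodes Oct1 (log2 -0.27), and Lsm10 (log2 -0.18). Of 33 chaperone and assembly genes, 11 were called higher and 0 lower. Among the highest were Asf1b, an H3-H4 chaperone (116 against 2.94 CPM, log2 4.89), and Nasp, an H3-H4 chaperone (269 against 36.9 CPM, log2 2.83). The lowest were Supt6 (log2 -0.44), Ubn2 (log2 -0.42) and Cabin1 (log2 -0.22). The medians were 0.42 for the processing list and 0.66 for the chaperone list, against -0.09 for all genes. Cenpa, the centromeric H3 variant that falls outside the naming rule, was at 1128 CPM in G2/M-gene cells, 326 in S and G2/M-gene cells, 17.9 in S-gene cells and 45.3 in Procr+ non-cycling cells.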

How the data were processed

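The deposited file holds raw whole-number counts, 1 row a gene and 1 column a cell. Per the submitters' processing notes, the tools were HISAT2 2.1.0, HTSeq 0.9.1 and Trimmomatic 0.36, and the build was GRCm38. The sources used here do not give the strand setting or say if reads or molecules were counted. Genes and libraries were read from the counts as deposited. Cells were kept at 1000 or more detected genes and 10% or less mitochondrial counts (76 fell under the minimum and 10 others were over the limit). A small library was left out, with its 17 columns. No doublet caller was run on the singly sorted cells.

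Counts were summed over the cells of a group and scaled to CPM. Lineage lists were passed at 3 to 5 markers of at least 100 CPM. Cells between the cycling and non-cycling limits that passed no lineage list (409) entered only the grid of S and G2/M genes and its bins. Lineage-marker cells between the limits stayed in the lineage-marker sums. Procr+ cells that passed a lineage list (261) entered no comparison, and 195 cells had 10 to 13 S genes on, near the limit of 12. Intervals are exact at 95% and, for ratios, were computed without the added 1 CPM. No test, p-value or standard error was computed, because no cell could be assigned to a sample. Scripts ran under Python 3.11.15 with numpy 2.4.6, pandas 2.3.3 and scipy 1.17.1 and were tested on simulated data. Members, lists, limits and named genes (up to 10 highest and 10 lowest ratios, every variant, the most counted members) were chosen with earlier results of these data known. A chaperone-list gene that the rule would name is not reported here. Alternatives covered cell filters, gate limits, weighting, thinning, scaling and libraries.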

Additional observations from a re-analysis of the deposited data

How the results depend on the processing

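No paired analysis was possible because cells carry no sample or replicate number, so a fit with a replicate block was not run; medians within libraries stand below. Values below are log2 ratios, in the order replication-dependent genes in cycling against Procr+ non-cycling cells, variants in the same cells, replication-dependent genes in G2/M-gene against S-gene cells, and replication-dependent then variant genes in lineage-marker against Procr+ non-cycling cells (2.33, 0.45, 3.24, 2.23 and -0.12 as reported). They were 2.22, 0.43, 3.41, 2.32 and -0.067 with genes on at 10 CPM, 2.52, 0.49, 3.45, 2.15 and -0.21 at 50 CPM, 2.65, 0.51, 3.17, 2.53 and -0.18 with gates stricter by 2 genes, 2.098, 0.34, 2.99, 1.55 and -0.34 with equal weight per cell, and 2.15, 0.35, 3.03, 1.64 and -0.33 with cells thinned to 20000 counts. Thinning kept the groups set at full depth and left out 16 cycling cells (among them 5 G2/M-gene and 4 S-gene cells), 89 lineage-marker and 114 Procr+ non-cycling cells. Medians within libraries were 1.83, 0.41, 1.71 (1 library), 1.54 and -0.039. At 2000 or more detected genes the lineage-marker values were 2.26 and -0.10. A pseudocount of 5 CPM gave 2.32 for the first, and centring on the median of all genes gave 2.42, 0.53 and 3.17 for the first 3.

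Leaving out 1 library at a time gave 2.16 to 2.37, 0.42 to 0.45, 2.90 to 3.47, 2.14 to 2.32 and -0.17 to -0.050. The count of 40 replication-dependent genes called higher was 31 without Lib22 and at most 41 without any other library. It was between 32 and 50 under the other settings. But the median within a library was 17.5, where groups hold few cells and the share of all genes was not computed. Chosen after the data were seen, leaving out the 8 libraries with mostly lineage-list cells gave 2.25, 3.37 and 2.34 for replication-dependent genes and reversed the lineage-marker variant value to 0.063. Leaving out genes that share 50% of their windows or more, also chosen then, gave 1.15, 3.16 and 1.37 for the replication-dependent values. Leaving Hist1h2bc and Hist1h1c out of the S-gene against Procr+ non-cycling value, also chosen then, gave -0.060 in place of -0.73. The cause of these shifts was not tested.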
